A study of Mus musculus with 30 samples.

Results

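Myotubes at day 4 of differentiation on patterned gelatin were compared between 2 cell sources, primary myoblasts and the C2C12 line. The comparison used 6 of the 30 libraries of the series, chosen by their labels alone: 3 from C2C12 cells and 3 from primary cells. C2C12 is an immortalised mouse myoblast line, here from a commercial stock at low passage. The primary myoblasts had been isolated from hindlimb muscle (given as gastrocnemius elsewhere in the study's text) of 3 C57/Bl6J mice, 8 weeks old, by collagenase digestion and a pre-plating step, and were grown on a basement-membrane gel with basic fibroblast growth factor before they were moved to the gels. Both kinds of cell were then cultured on grooved gelatin hydrogels in the same low-serum medium for 4 days, and were briefly exposed to trypsin at harvest to enrich myotubes. No label names a genetic change or any other treatment, and none gives a genotype, a sex, the mouse behind each primary library or the batch of the C2C12 stock. Mouse strain, immortalisation and the medium and coating before plating all differ between the groups along with the cell source, so these cannot be told apart. The question addressed is how far the line and the freshly isolated cells differ once both have formed aligned myotubes.

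Myotubes are multinucleated cells that form when myoblasts leave the cell cycle and fuse. The factors Myod1 and Myog switch on the genes of the sarcomere, in which myosin thick filaments slide along actin thin filaments anchored at the Z disc, and of the membrane systems that couple excitation to calcium release. Cultured myotubes of this age usually carry embryonic and neonatal myosins, and the adult fast myosins follow as fibres mature.

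RNA was sequenced, and estimated counts per transcript were summed per gene. The libraries held 28451645, 30880960 and 26727514 gene-assigned counts in C2C12 replicates 1, 2 and 3 and 26813301, 28251187 and 28109732 in primary replicates 1, 2 and 3, with counts in 17459 to 17887 genes. Levels below are counts-per-million values (CPM) after TMM scaling, and a log2 difference is primary minus C2C12 with its standard error. A gene was called higher or lower at an adjusted p under 0.05 in edgeR's quasi-likelihood test over all 14258 genes tested. The study describes separate cultures per condition, so the p-values measure the spread between cultures. Whether this also covers the spread between mice or between C2C12 batches is not known. The study reported that the genes regulated often differed between its C2C12 batches.

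Primary replicate 3 stood apart from the other libraries. Its log2 CPM correlated at 0.969 and 0.971 across genes with primary replicates 1 and 2, which correlated with each other at 0.994, and the C2C12 replicates correlated at 0.996 to 0.997. The standard deviation of gene-wise log2 differences was 0.603 and 0.582 between primary replicate 3 and the other two, 0.275 between primary replicates 1 and 2, and 0.173 to 0.208 between C2C12 replicates. Counts without this library are therefore given beside each gene group.

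All 6 libraries carried the genes that define skeletal myotubes. Ttn, which encodes the giant spring protein titin, was at 17740.4, 17344 and 19584 CPM in the C2C12 libraries and 27296, 26318 and 26467 CPM in the primary libraries. Myog, the factor of terminal differentiation, was at 626, 655 and 609.5 CPM and 697, 677 and 371 CPM. Lists of markers of other cell types summed to at most 546 CPM in a library. Summed over the 20 fibroblast markers the C2C12 libraries held 482 to 546 CPM and the primary libraries 50.3 to 90.5 CPM. Lox, a collagen crosslinking enzyme gene, held most of that sum in both, at 322, 377 and 361 CPM and 74.3, 38.5 and 75.7 CPM. The 14 endothelial markers summed to 10.3 to 13.1 CPM in C2C12 and 17.7 to 24.7 CPM in primary libraries, with 4 of them at 0 in all 6 libraries, and the 15 macrophage and leukocyte markers to 4.21 to 4.82 CPM and 6.26 to 8.34 CPM, with 6 at 0. The 12 Schwann cell markers summed to 304 to 335 CPM and 392 to 510 CPM, with 8 of them under 1 CPM in all 6 libraries. Erbb3, a neuregulin receptor that is also in the neuromuscular junction list, held most of that sum, at 265, 298 and 261 CPM in C2C12 and 439, 493 and 378 CPM in primary libraries. The 12 pericyte and smooth muscle cell markers reached 279.7 to 353 CPM and 213 to 301 CPM. These sums hide opposite changes, with 3 markers called higher and 4 lower of 7 tested. Abcc9, a channel subunit gene also in the coupling list, held most of the primary sums, at 175, 226 and 190 CPM. It was at 8.21, 10.3 and 10.5 CPM in C2C12. Pdgfrb went the other way, at 103, 116 and 117 CPM in C2C12 and 5.73, 2.72 and 0.381 CPM in primary libraries. The 10 adipocyte markers summed to 21.01 to 23.99 CPM in C2C12 and 12.6 to 19.03 CPM in primary libraries, and the 10 tendon markers to 167 to 183 CPM and 104 to 110.3 CPM. In bulk RNA, fewer cells of a type and less RNA per cell cannot be told apart.

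The sources differed in almost as many genes upward as downward. Of the 14258 genes tested, 3459 were higher in primary myotubes (24.3%) and 3228 lower (22.6%), and the median log2 difference of all genes was 0.0042. Without primary replicate 3, 4461 of 14602 genes were higher (30.6%) and 4359 lower (29.9%). The scale of transcripts-per-million values (TPM) divides by transcript length and was used here without TMM scaling. Tested as log2(TPM + 1) with limma, 2152 genes were higher and 4266 lower, and the median of all genes was at -0.16. On this scale 33.5% of calls were upward, against 51.7% on the count scale. The parts of length, of the missing TMM scaling and of the added 1 in that shift were not tested. Of 58 tested genes of a panel of muscle genes, 24 were higher, 8 lower and 26 not called, and without primary replicate 3, 32 of 59 were higher and 13 lower. Counts of a gene group are to be read against the shares of all genes in the same setting. Those on the TPM scale are given where they change a group's balance. Because calls over all genes leaned lower on that scale, equal counts there are still tilted higher relative to all genes. A test for differences beyond 1 on the log2 scale called 1586 genes. The gene groups described next are shown together in the plot of member differences by list.

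**Figure D1:**
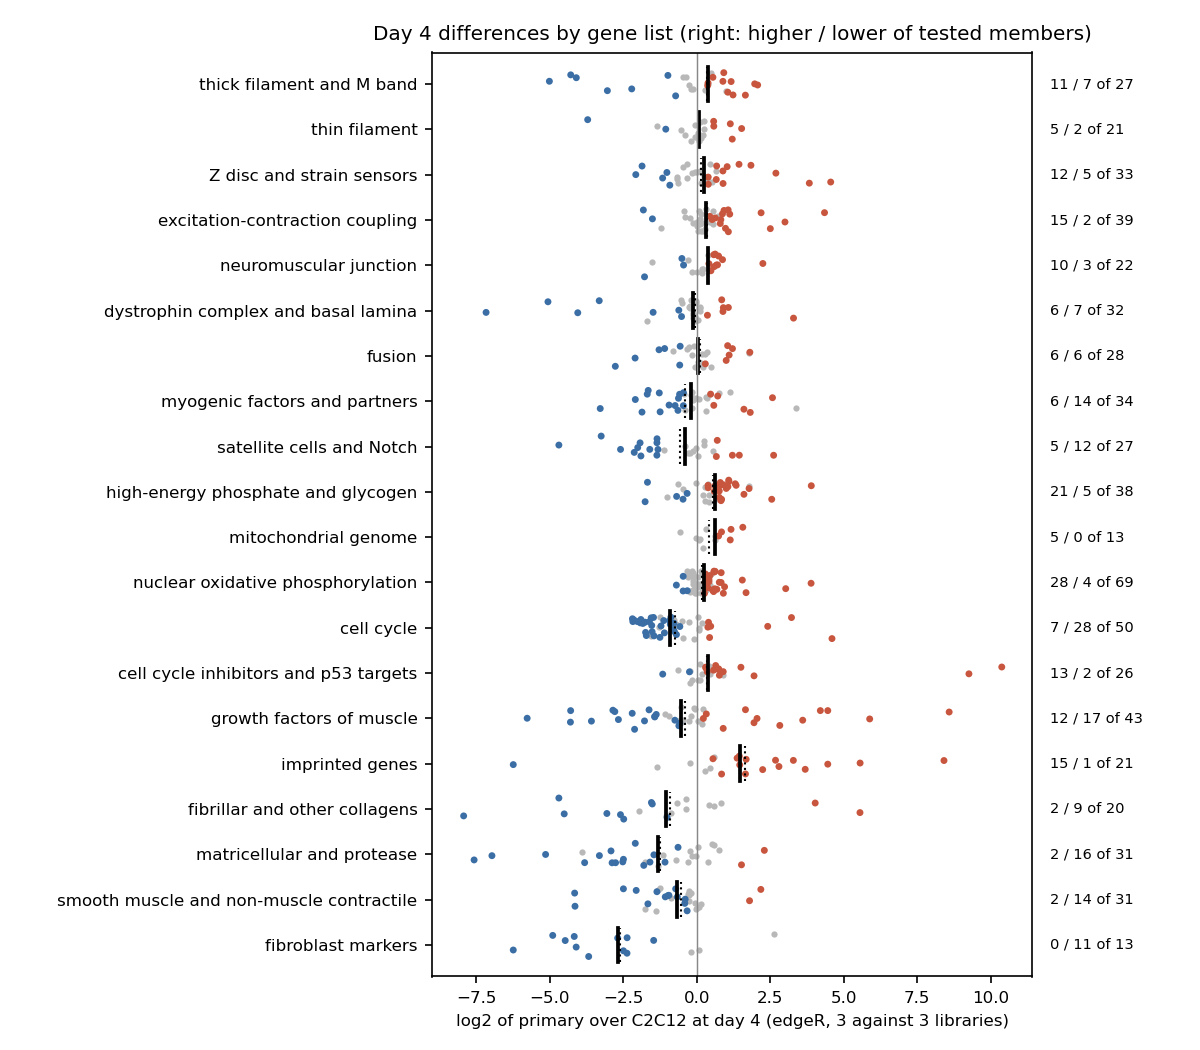
Log2 difference at day 4, primary over C2C12, of each tested member of 20 gene lists (points, red higher, blue lower, grey not called, genes without counts in a group at their bound), with the median of the tested members (solid bar) and the median without primary replicate 3 (dotted bar). Collagens, matricellular proteins, smooth and non-muscle contractile genes and the cell cycle have medians from -1.30 to -0.66 and imprinted genes 1.46, while the medians of the thin filament (0.07), fusion (0.03) and nuclear oxidative phosphorylation (0.23) turn to -0.07, -0.12 and -0.03 on the TPM scale. The median of all genes is also negative on that scale.

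The myosin genes moved in different directions. Of the 27 tested genes of the M band and the thick filament, 11 were higher (40.7%) and 7 lower (25.9%) in primary myotubes, with a median of 0.37. Leaving out primary replicate 3 gave 15 and 8 of 28. On the TPM scale, where calls over all genes leaned lower, they were 7 and 7.

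Myh3 and Myh1 were the most abundant of 7 heavy chains per length in both sources. Mean TPM in C2C12 myotubes ran from 1484 for Myh3 (embryonic) and 762 for Myh1 (fast IIx) to 204 for Myh7 (slow), 175 for Myh8 (neonatal), 46.5 for Myh4 (fast IIb), 14.5 for Myh2 (fast IIa) and 11.5 for Myh6 (alpha cardiac). In primary myotubes the order of mean TPM was Myh3 at 1772, Myh1 at 1237, Myh8 at 682, Myh7 at 259, Myh4 at 29.98, Myh2 at 0.861 and Myh6 at 0.486. Myh8 thus stood above Myh7 in the primary mean and below it in the C2C12 mean, an exchange of rank that was not itself tested.

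Myh8 was at 596, 495 and 535 CPM in the C2C12 libraries and 2386, 3175 and 1276 CPM in the primary libraries, a log2 difference of 2.07 ± 0.32 (adjusted p = 0.00254). All 3 primary libraries exceeded all C2C12 libraries, with primary replicate 3 the lowest, and without it the difference was 2.36. Myh2 went the other way, at 56.2, 39.5 and 49.01 CPM against 1.79, 4.64 and 2.02 CPM (-4.09 ± 0.38, adjusted p = 0.000341), and so did Myh6 at 39.7, 34.3 and 41.5 CPM against 1.45, 1.06 and 1.07 CPM (-5.01 ± 0.17, adjusted p = 1.05e-05). For both, the groups were far apart in every library.

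Primary replicate 3 decided the call of the embryonic and slow chains. Myh3 was at 5295, 4493 and 5013 CPM in C2C12 and at 8133 and 8827 CPM in primary replicates 1 and 2, but at 2318 CPM in primary replicate 3. Its difference of 0.38 ± 0.45 did not pass the test (adjusted p = 0.516), and without that library it was 0.78 (adjusted p = 0.00041). Myh7 behaved alike, at 688, 624 and 712 CPM against 1159, 1263 and 395 CPM, with 0.48 (adjusted p = 0.354) and without replicate 3 0.84 (adjusted p = 0.000117). Myh1 was at 2473, 2148 and 2374 CPM and 2592, 4412 and 5968 CPM (0.89 ± 0.29, adjusted p = 0.0405), with primary replicate 3 the highest, and this call was lost in several alternatives. Myh4 overlapped between groups, at 163, 144 and 155 CPM against 51.4, 144 and 139.9 CPM (adjusted p = 0.321).

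Among the proteins that bind or regulate myosin, Mybpc1, the slow-type myosin-binding protein C, was at 103, 102 and 100.4 CPM in C2C12 and 348, 442 and 407 CPM in primary myotubes (1.97 ± 0.11, adjusted p = 5.02e-05). The light chain gene Myl4, expressed in embryonic muscle and atria, was at 1561, 1319.8 and 1409 CPM against 3096, 3211 and 3786 CPM (1.23 ± 0.13, adjusted p = 0.000543). Neither gene's groups overlapped. Mylk2, the kinase of skeletal myosin light chains, was lower at 5.11, 8.303 and 6.37 CPM against 54.8, 57.9 and 49.8 CPM in C2C12 (-3.04 ± 0.19, adjusted p = 6.88e-05), as was the slow and ventricular light chain gene Myl2 at 15.95, 18.6 and 9.27 CPM against 69.8, 49.9 and 83.1 CPM (-2.21 ± 0.30, adjusted p = 0.00148). Ttn was higher by 0.55 ± 0.12 (adjusted p = 0.0113), a call that was lost when all 18 libraries of days 0, 4 and 7 shared the fit.

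**Figure D2:**
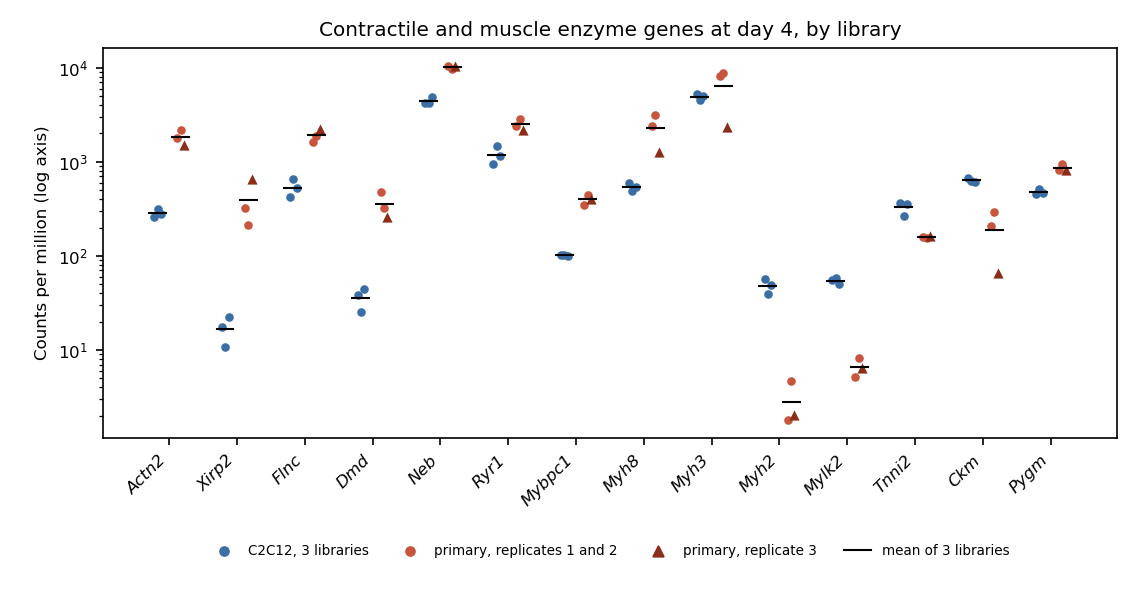
CPM on a log axis of 14 muscle genes in each day 4 library, with C2C12 in blue, primary replicates 1 and 2 in red, primary replicate 3 as a dark triangle and the mean of each group as a black line. Actn2, Xirp2, Flnc, Dmd, Neb and Ryr1 sit higher in every primary library and Myh2, Mylk2 and Tnni2 lower, while Myh3 overlaps because primary replicate 3 lies at 2318 CPM.

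The thin filament as a list stayed near the median of all genes, with a median of 0.07 on the count scale. Of 21 tested members 5 were higher (23.8%) and 2 lower (9.5%), against 24.3% and 22.6% of all genes. On the TPM scale 3 were higher and 5 lower, with a median of -0.07. With primary replicate 3 left out, 7 were higher and 5 lower. The main skeletal actin gene Acta1 (0.15, adjusted p = 0.473) and the troponin genes Tnnt2 (0.07), Tnnt3 (-0.05) and Tnnc2 (-0.04) did not pass the test. Neb, encoding the giant protein nebulin that runs along the thin filament, was at 4235, 4200.1 and 4854 CPM in C2C12 and 10481, 9743 and 10488 CPM in primary myotubes, a difference of 1.21 ± 0.12 (adjusted p = 0.000455). The groups did not overlap, and the 3 primary libraries lay close together.

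Among the other thin filament genes, Actc1, the cardiac actin that is also made in developing skeletal muscle, was at 1485, 1437 and 1375 CPM and 3309, 4087 and 2087 CPM (1.14 ± 0.24, adjusted p = 0.00833), and this call was lost in the fit of 18 libraries. Tmod1, which caps the pointed end of actin, was at 165, 177 and 177 CPM and 239.9, 291 and 244 CPM (0.58 ± 0.10, adjusted p = 0.00472). The slow troponin C gene Tnnc1 was at 1542, 1258 and 1304 CPM and 2213, 1876 and 2053 CPM (0.58 ± 0.13, adjusted p = 0.00952), and its call was lost without some libraries. The fast troponin I gene Tnni2 was lower in all 3 primary libraries, at 161, 156 and 161 CPM against 364, 268 and 359 CPM (-1.05 ± 0.13, adjusted p = 0.00115). The cardiac Tnni3 was a minor transcript, at 3.95, 3.39 and 4.25 CPM in C2C12 and 0.305, 0.151 and 0.4196 CPM in primary myotubes (-3.71 ± 0.35, adjusted p = 0.000389). Slow Tnnt1 was at 535, 432 and 543 CPM against 231, 304 and 504 CPM, not called with all libraries (-0.54, adjusted p = 0.157) and lower without primary replicate 3 (-0.91, adjusted p = 0.00104).

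The Z disc and its strain sensors had 12 of 33 tested members higher (36.4%), 5 lower (15.2%) and a median of 0.26. Among all genes tested 24.3% were higher and 22.6% lower. The counts of this list were 14 and 8 (median 0.15) without primary replicate 3 and 8 and 8 on the TPM scale. Actn2 (chr13:12269426-12340760, build mm10), the sarcomeric alpha-actinin that crosslinks thin filaments at the Z disc, was at 258, 311 and 280.2 CPM in C2C12 and 1801, 2163 and 1524 CPM in primary myotubes (2.69 ± 0.16, adjusted p = 6.45e-05). The lowest primary library was several-fold above the highest C2C12 library. Xirp2, an actin-binding protein of the Z disc and intercalated disc, was at 17.7, 10.9 and 22.2 CPM and 325, 211 and 655 CPM (4.56 ± 0.51, adjusted p = 0.000693), with primary replicate 3 the highest. Flnc, the muscle filamin, was at 423, 649 and 525 CPM and 1630.3, 1876 and 2229 CPM (1.84 ± 0.20, adjusted p = 0.000583).

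Capn3, a muscle protease anchored on titin, was at 68.9, 66.7 and 61.2 CPM and 143, 229 and 161 CPM (1.44 ± 0.18, adjusted p = 0.00111). Cmya5, a titin- and desmin-binding protein picked after its values were seen, was at 16.5, 19.97 and 17.9 CPM in C2C12 and at 258, 442 and 73.2 CPM in primary libraries, where replicate 3 was the lowest. Lower in primary myotubes were Ankrd2, a strain-responsive ankyrin repeat protein, at 10.95, 6.98 and 14.6 CPM against 45.5, 43.5 and 47.8 CPM (-2.07 ± 0.25, adjusted p = 0.00095), and Pdlim7, an alpha-actinin-binding adaptor, at 51.4, 49.97 and 42.5 CPM against 97.3, 96.7 and 96.7 CPM (-1.01 ± 0.09, adjusted p = 0.000359). The groups did not overlap for either. Desmin (Des, 0.26, adjusted p = 0.141) did not pass the test.

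Excitation-contraction coupling leaned toward primary myotubes, with 15 of 39 tested genes higher, 2 lower and a median of 0.31. The counts were 21 and 6 without primary replicate 3, and on the TPM scale 10 and 6. Ryr1, the calcium release channel of skeletal muscle, was at 941, 1457 and 1159.9 CPM in C2C12 and 2430.01, 2881 and 2191 CPM in primary myotubes (1.08 ± 0.19, adjusted p = 0.0044). The calcium pumps Atp2a1 (1488, 1732 and 1537 against 1719.9, 2334 and 1233 CPM, adjusted p = 0.606) and Atp2a2 (2441, 2486 and 2424 against 2486, 2748 and 2293 CPM, adjusted p = 0.813) did not pass the test, and their groups overlapped.

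The largest of these differences were in subunits of channels. Abcc9, the regulatory subunit of an ATP-sensitive potassium channel, was at 8.21, 10.3 and 10.5 CPM and 175, 226 and 190.1 CPM (4.35 ± 0.16, adjusted p = 1.13e-05). Its pore partner Kcnj11 was scarce, at 0.871, 0.794 and 0.714 CPM and 4.31, 6.001 and 3.24 CPM (2.50 ± 0.29, adjusted p = 0.000802). Cacng6, a calcium channel gamma subunit, was at 4.49, 4.82 and 4.43 CPM and 33.8, 42.6 and 33.8 CPM (3.00 ± 0.13, adjusted p = 2.12e-05). Smaller differences separated Stim1, the calcium sensor of store-operated entry (0.88 ± 0.12, adjusted p = 0.00175), and Mtm1, the phosphatase myotubularin (1.07 ± 0.12, adjusted p = 0.000606). Ryr3, the second release channel of immature muscle, was at 156, 172 and 159 CPM against 84.9, 99.3 and 25.4 CPM, with -1.22 ± 0.45 (adjusted p = 0.0623) in all libraries and -0.82 (adjusted p = 0.000151) without primary replicate 3.

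The promoters of the higher, lower and uncalled genes of the filament, Z disc and coupling lists were searched for the E-box CAGCTG. It is a palindrome and hence the same on both strands. In RefSeq's promoter table (build GRCm38.p6), limited to the 250 bases before the start, 4271 of 32851 promoters of all genes held it (13.001%). It was in 10 of 49 promoters of genes higher in primary myotubes (20.4%), in 3 of 16 of genes lower (18.8%) and in 23 of 49 of genes not called (46.9%). The share was thus highest in genes that were not called. Promoters were found for 36 of 43 higher, 13 of 16 lower and 41 of 61 uncalled genes, and some genes had several. The windows of 3 higher genes are printed 5′ to 3′ on the gene's strand, with the E-box in capitals, as examples of its position. They lie at chr6:142702275-142702524 on the minus strand, chr10:88605153-88605402 on the minus strand and chr2:120463343-120463592 on the plus strand, with the motif starting 27, 87 and 214 bases before the annotated start. The Abcc9 and Capn3 starts used by RefSeq here lie inside the annotated genes. The annotated Abcc9 gene reaches chr6:142702315, past its motif.
Abcc9: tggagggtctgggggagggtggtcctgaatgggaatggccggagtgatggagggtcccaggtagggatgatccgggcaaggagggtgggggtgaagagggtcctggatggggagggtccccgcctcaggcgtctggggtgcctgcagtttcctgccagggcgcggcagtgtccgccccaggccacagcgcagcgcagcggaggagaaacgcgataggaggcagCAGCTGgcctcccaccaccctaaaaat
Mybpc1: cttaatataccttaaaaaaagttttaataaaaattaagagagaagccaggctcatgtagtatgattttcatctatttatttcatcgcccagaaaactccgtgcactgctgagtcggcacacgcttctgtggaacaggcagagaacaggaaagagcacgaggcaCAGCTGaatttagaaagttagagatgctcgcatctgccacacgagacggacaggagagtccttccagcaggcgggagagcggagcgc
Capn3: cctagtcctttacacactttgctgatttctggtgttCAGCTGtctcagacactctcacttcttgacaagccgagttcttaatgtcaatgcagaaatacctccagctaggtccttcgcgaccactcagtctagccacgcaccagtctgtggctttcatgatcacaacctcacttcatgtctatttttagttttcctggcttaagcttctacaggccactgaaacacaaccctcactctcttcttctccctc

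At the neuromuscular junction, where the motor nerve meets the fibre, 10 of 22 tested genes were higher and 3 lower, with a median of 0.40. Leaving out primary replicate 3 gave 13 and 4, and on the TPM scale 5 and 5. The acetylcholine receptor subunit genes Chrna1 (1214, 1162 and 1149.9 against 1714, 2077 and 2112 CPM, 0.74 ± 0.12, adjusted p = 0.00269) and Chrng, the embryonic gamma subunit (395, 431 and 403 against 672, 701 and 886 CPM, 0.88 ± 0.13, adjusted p = 0.00212), were higher in every primary library. The adult epsilon subunit gene Chrne was at low levels, 1.21, 2.35 and 1.57 CPM and 0.267, 1.17 and 0.343 CPM (adjusted p = 0.0689). Musk, the receptor kinase that clusters acetylcholine receptors, was at 178, 189 and 189 CPM and 259, 281 and 319 CPM (0.63 ± 0.10, adjusted p = 0.00318). Etv5, an ETS factor of synaptic nuclei, was at 12.5, 17.2 and 14.7 CPM and 64.3, 81.5 and 65.9 CPM (2.25 ± 0.16, adjusted p = 0.000114). The ligand gene Nrg1 was lower, at 0.992, 0.906 and 0.648 CPM against 2.78, 2.96 and 2.998 CPM (-1.77 ± 0.24, adjusted p = 0.0014).

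The dystrophin complex and basal lamina list was split, with 6 of 32 members higher (18.8%) and 7 lower (21.9%) and a median of -0.12. Of all genes tested, 24.3% were higher and 22.6% lower. The counts became 9 and 9 (median -0.06) without primary replicate 3, and on the TPM scale 6 and 12. Dmd, dystrophin itself, was at 38.4, 25.4 and 44.5 CPM in C2C12 and 481, 323 and 256 CPM in primary myotubes (3.29 ± 0.31, adjusted p = 0.000368), with no overlap. Sspn (sarcospan) was at 131, 124 and 127 CPM and 204, 233 and 251 CPM (0.85 ± 0.10, adjusted p = 0.000875) and Sntb1, a syntrophin, at 113, 121 and 121 CPM and 194, 253 and 300.3 CPM (1.08 ± 0.16, adjusted p = 0.00228). Nos1, the neuronal nitric oxide synthase held by syntrophin, was lower at 1.83, 0.642 and 0.343 CPM against 28.6, 30.4 and 35.2 CPM (-5.06 ± 0.49, adjusted p = 0.000416). Col6a3, a collagen VI chain made mainly by fibroblasts in muscle tissue, was at 45.7, 56.6 and 52.01 CPM against 0.687, 0.302 and 0.0763 CPM (-7.16 ± 0.44, adjusted p = 6.74e-05).

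Energy metabolism genes were more often higher in primary myotubes. Of 38 tested genes of phosphocreatine, glycogen and glycolysis, 21 were higher and 5 lower with a median of 0.61, against 26 and 9 of 39 without primary replicate 3 and 15 and 7 on the TPM scale. Slc2a4, the insulin-responsive glucose transporter, was at 9.68, 8.64 and 7.67 CPM and 48.9, 57.3 and 46.3 CPM (2.55 ± 0.13, adjusted p = 3.70e-05). Ppp1r3c, which targets a phosphatase to glycogen, was at 1.81, 1.34 and 1.61 CPM and 22.02, 22.3 and 26.6 CPM (3.90 ± 0.16, adjusted p = 1.98e-05). Every primary library exceeded every C2C12 library for both.

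The glycogen enzymes moved less. Gyg, which primes glycogen chains (168, 142 and 149 against 316, 335 and 307 CPM, 1.06 ± 0.10, adjusted p = 0.000347), the glycogen phosphorylase gene Pygm (450.1, 514 and 461 against 815, 936 and 809 CPM, 0.85 ± 0.11, adjusted p = 0.00116) and the aldolase gene Aldoa (1719.6, 1575 and 1586 against 3442, 3396 and 3596 CPM, 1.10 ± 0.10, adjusted p = 0.000331) were all higher. Ckm, the muscle creatine kinase, was lower at 209.8, 292 and 66.5 CPM against 669.7, 631 and 614 CPM (-1.75 ± 0.48, adjusted p = 0.023), with primary replicate 3 the lowest. Without that library the Ckm difference was -1.35 (adjusted p = 9.65e-05), and the call was lost in the fit of 18 libraries. Gpd1, the cytosolic glycerol-3-phosphate dehydrogenase, was also lower (-1.67 ± 0.14, adjusted p = 0.000255). Mb, myoglobin, did not pass the test (-0.64, adjusted p = 0.0829).

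All 13 protein-coding genes of the mitochondrial genome were tested, and 5 were higher and 0 lower (median 0.61), against 6 and 0 (median 0.41) without primary replicate 3 and 3 and 0 on the TPM scale. The oxidase subunit gene mt-Co3 was at 4107, 3557 and 3605 CPM and 8428, 10402 and 14572 CPM (1.57 ± 0.22, adjusted p = 0.00165), with primary replicate 3 the highest, and mt-Co2 at 1379.9, 1279 and 1424 CPM and 2228, 3034 and 3737 CPM (1.14 ± 0.19, adjusted p = 0.00376). The calls of mt-Co1, mt-Cytb and mt-Nd3 were lost under some alternatives.

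Of 69 nuclear genes of oxidative phosphorylation and its regulators, 28 were higher and 4 lower with a median of 0.23 on the count scale. On the TPM scale, where all genes leaned lower, the counts were 15 and 15 with a median of -0.03. They were 33 and 9 without primary replicate 3. Esrrg, a nuclear receptor that drives oxidative genes, was at 3.28, 3.79 and 4.28 CPM and 52.5, 60.5 and 55.2 CPM (3.89 ± 0.13, adjusted p = 1.05e-05). The muscle isoforms of cytochrome oxidase Cox8b (17.2, 15.9 and 15.03 against 56.1, 48.9 and 49.1 CPM, 1.68 ± 0.10, adjusted p = 6.69e-05) and Cox6a2 (42.5, 30.4 and 37.6 against 128, 91.9 and 104 CPM, 1.55 ± 0.17, adjusted p = 0.000647) were higher in every primary library. The complex I genes Ndufs3 (0.61 ± 0.08) and Ndufa8 (0.69 ± 0.09) passed with smaller differences.

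Regulators of myogenesis were more often lower in primary myotubes, 14 of 34 against 6 higher (median -0.18). Without primary replicate 3 the counts were 16 and 11, with a median of -0.41. On the TPM scale 16 were lower and 3 higher. The 4 myogenic regulatory factors moved apart. Myod1 was at 139, 169.6 and 157 CPM in C2C12 and 234, 255 and 207 CPM in primary myotubes (0.58 ± 0.12, adjusted p = 0.00763), a call lost on the TPM scale. Myf5, the factor of undifferentiated myoblasts, was at 23.95, 23.5 and 22.9 CPM and 2.901, 3.96 and 9.69 CPM (-2.09 ± 0.42, adjusted p = 0.00729). Myog (-0.12, adjusted p = 0.707) and Myf6 (6.83, 4.397 and 5.35 against 4.54, 6.87 and 5.03 CPM, adjusted p = 0.973) did not pass the test.

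Mbnl1, a splicing regulator, was lower in primary myotubes at 193, 208 and 213 CPM against 468, 479 and 508 CPM (-1.24 ± 0.09, adjusted p = 0.000125). Eya1, a transcriptional coactivator, was lower as well at 6.53, 6.49 and 4.96 CPM against 20.97, 17.7 and 19.03 CPM (-1.68 ± 0.15, adjusted p = 0.000297). Neither gene's groups overlapped. Mef2c, a partner of Myod1, was at 725, 684 and 701 CPM against 1478, 1458 and 639 CPM. It was not called with all libraries (0.76 ± 0.30, adjusted p = 0.0801) and was higher without primary replicate 3 (1.06, adjusted p = 1.39e-05).

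Satellite cell and Notch pathway genes were lower in 12 of 27 and higher in 5 cases (median -0.39), with 14 and 6 without primary replicate 3 and 14 and 3 on the TPM scale. Cxcr4, a chemokine receptor of migrating myoblasts, was at 68.8, 63.6 and 74.5 CPM in C2C12 and 3.32, 2.57 and 2.14 CPM in primary myotubes (-4.69 ± 0.18, adjusted p = 1.17e-05). The receptors Fgfr4 (24.1, 27.7 and 27.8 against 3.85, 2.49 and 2.02 CPM, -3.25 ± 0.24, adjusted p = 0.000145) and Met (114, 104 and 119 against 51.03, 36.9 and 47.1 CPM, -1.32 ± 0.13, adjusted p = 0.000509) and the Notch ligand gene Dll1 (61.4, 63.6 and 60.8 against 24.5, 26.6 and 21.8 CPM, -1.35 ± 0.10, adjusted p = 0.000138) were lower in every primary library. The paired-box genes Pax3 and Pax7 mark muscle progenitors. Pax3 was higher at 5.95, 3.06 and 6.75 CPM against 0.971, 0.702 and 0.892 CPM (2.62 ± 0.35, adjusted p = 0.00146). Pax7 was at 27.6, 21.2 and 6.904 CPM against 37.8, 41.1 and 43.01 CPM and was not called (-1.13 ± 0.44, adjusted p = 0.0743), but was lower without primary replicate 3 (-0.73, adjusted p = 0.00111).

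Genes of cell fusion showed no common direction, with 6 higher and 6 lower of 28 (21.4% each, against 24.3% and 22.6% of all genes tested). Their median of 0.03 turned to -0.12 on the TPM scale and -0.05 without primary replicate 2. Without primary replicate 3 the counts were 9 and 7, with a median of 0.10. Mymk, the fusogen myomaker, was at 547, 679.7 and 604 CPM and 1388, 1532 and 1331 CPM (1.22 ± 0.12, adjusted p = 0.000452). Its partner Mymx (myomixer) was at 55.8, 57.4 and 49.97 CPM and 44.01, 49.4 and 133 CPM (adjusted p = 0.378), with primary replicate 3 above and the other primary libraries below every C2C12 library. The adhesion gene Jam3 was higher (27.7, 27.9 and 26.4 against 116, 118 and 52.7 CPM, 1.81 ± 0.30, adjusted p = 0.00338). Dock5, a guanine exchange factor of the fusion machinery, was lower (67.3, 69.7 and 66.9 against 31.9, 35.5 and 28.4 CPM, -1.09 ± 0.10, adjusted p = 0.000366), as were Cdh15, M-cadherin (-0.56 ± 0.08, adjusted p = 0.002), and Kirrel (-2.09 ± 0.40, adjusted p = 0.00587).

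Cell cycle genes were lower in primary myotubes in 28 of 50 cases and higher in 7, with a median of -0.90, and without primary replicate 3 in 34 and 7. The ribonucleotide reductase genes Rrm2 (112, 116 and 108 against 39.7, 36.5 and 24.5 CPM, -1.74 ± 0.18, adjusted p = 0.00052) and Rrm1 (109, 102 and 107 against 69.4, 66.01 and 61.2 CPM, -0.69 ± 0.08, adjusted p = 0.000872) and the spindle gene Nusap1 (-1.55 ± 0.19, adjusted p = 0.00106) stood lower in every primary library. Mki67, the proliferation marker, was at 74.4, 49.1 and 75.5 CPM against 27.7, 12.3 and 4.08 CPM (-2.17 ± 0.61, adjusted p = 0.0256), a call lost under several alternatives. The cyclin genes Ccnd2 and Ccne1 went the other way. Ccnd2 was at 25.8, 23.3 and 22.9 CPM in C2C12 and 684, 573 and 489.7 CPM in primary myotubes (4.60 ± 0.16, adjusted p = 1.05e-05), and Ccne1 at 2.38, 3.39 and 2.61 CPM and 20.7, 13.7 and 10.4 CPM (2.41 ± 0.29, adjusted p = 0.000946). Both were higher in all 3 primary libraries.

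Inhibitors of the cell cycle and targets of p53 were higher in 13 of 26 and lower in 2 (median 0.39), with 16 and 4 without primary replicate 3 and 9 and 3 on the TPM scale. The neighbouring genes Cdkn2a and Cdkn2b on chromosome 4, which encode inhibitors of cyclin D kinases and the p53 activator Arf, had no counts in any C2C12 library. In primary myotubes Cdkn2a was at 45.1, 35.8 and 50.9 CPM and Cdkn2b at 19.4, 21.4 and 19.9 CPM. Against a floor of 3 counts over the 3 C2C12 libraries these were at least 1326-fold and at least 611-fold higher. Sesn2, a stress-induced p53 target, was at 14.1, 15.3 and 14.1 CPM and 55.1, 44.7 and 68.3 CPM (1.95 ± 0.16, adjusted p = 0.000233), and Eda2r at 321, 292 and 296 CPM and 504, 500.5 and 523 CPM (0.75 ± 0.09, adjusted p = 0.000764). Rbl2, the retinoblastoma relative of quiescent cells, was lower (111, 113 and 115 against 47.9, 49.5 and 54.7 CPM, -1.16 ± 0.08, adjusted p = 0.000126). Cdkn1a, a kinase inhibitor induced as myoblasts leave the cell cycle, was at 1411, 1484 and 1347 CPM and 1730.4, 1813 and 1700.1 CPM (0.31, adjusted p = 0.0368), and that call was lost under some alternatives.

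Growth factors and their binding proteins were lower in 17 (39.5%) and higher in 12 (27.9%) of 43 tested genes (median -0.52). Among all genes tested 22.6% were lower and 24.3% higher. The counts of this list were 22 and 13 without primary replicate 3 and 21 and 9 on the TPM scale. Igf2 (chr7:142650766-142666816), the fetal insulin-like growth factor of differentiating myoblasts, was at 256, 223 and 236 CPM in C2C12 and 4824, 5058 and 5836 CPM in primary myotubes (4.46 ± 0.14, adjusted p = 9.05e-06). Igfbp3, which binds it, was at 5.23, 5.47 and 6.21 CPM and 84.7, 91.98 and 135 CPM (4.20 ± 0.21, adjusted p = 3.27e-05). The 3 primary libraries lay far above C2C12 for both.

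The secreted hormone gene Fgf21 (29.01, 29.5 and 24.7 against 121, 115 and 109 CPM, 2.05 ± 0.10, adjusted p = 3.05e-05) and Fndc5, the precursor of irisin (71.8, 64.6 and 63.8 against 245, 288 and 239 CPM, 1.95 ± 0.11, adjusted p = 5.00e-05), were higher. Mstn, the growth inhibitor myostatin, had 2 counts in the 3 C2C12 libraries and 804 in the primary libraries, a CPM ratio of 462 with an exact 95% counting interval of 127 to 3818, and was at 13.5, 12.2 and 4.88 CPM in the primary libraries. This interval covers counting error only. Ltbp2, a matrix protein of the latent TGF-beta binding family, was lower at 2.21, 1.89 and 1.37 CPM against 81.7, 110.1 and 106 CPM (-5.76 ± 0.22, adjusted p = 1.17e-05).

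Imprinted genes, expressed from a single parental allele, had the highest median of the 20 lists plotted, 1.46. Of 27 measured members 21 were tested, 15 were higher and 1 lower, against 17 and 4 without primary replicate 3 and 14 and 3 on the TPM scale. Besides Igf2 these included Peg3, a zinc finger gene of muscle progenitors (610.5, 662 and 657 against 1669.7, 1814 and 1781 CPM, 1.45 ± 0.10, adjusted p = 9.64e-05), the retrotransposon-derived Peg10 (25.3, 29.4 and 28.02 against 189, 333 and 285 CPM, 3.29 ± 0.22, adjusted p = 0.000102) and Snrpn, a splicing protein gene (14.04, 12.5 and 14.3 against 43.4, 44.8 and 42.99 CPM, 1.68 ± 0.09, adjusted p = 4.38e-05). Igf2, Peg3 and Snrpn lie on chromosome 7, where the tested genes as a whole had a median of 0.31. Ddc was at 5.29, 4.89 and 5.28 CPM and 24.8, 23.6 and 24.8 CPM (2.24 ± 0.10, adjusted p = 2.18e-05). Its neighbour Grb10, picked after its values were seen, was at 1.24, 0.855 and 0.999 CPM in C2C12 and at 481 and 545 CPM in primary replicates 1 and 2 but 25.7 CPM in replicate 3.

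**Figure D3:**
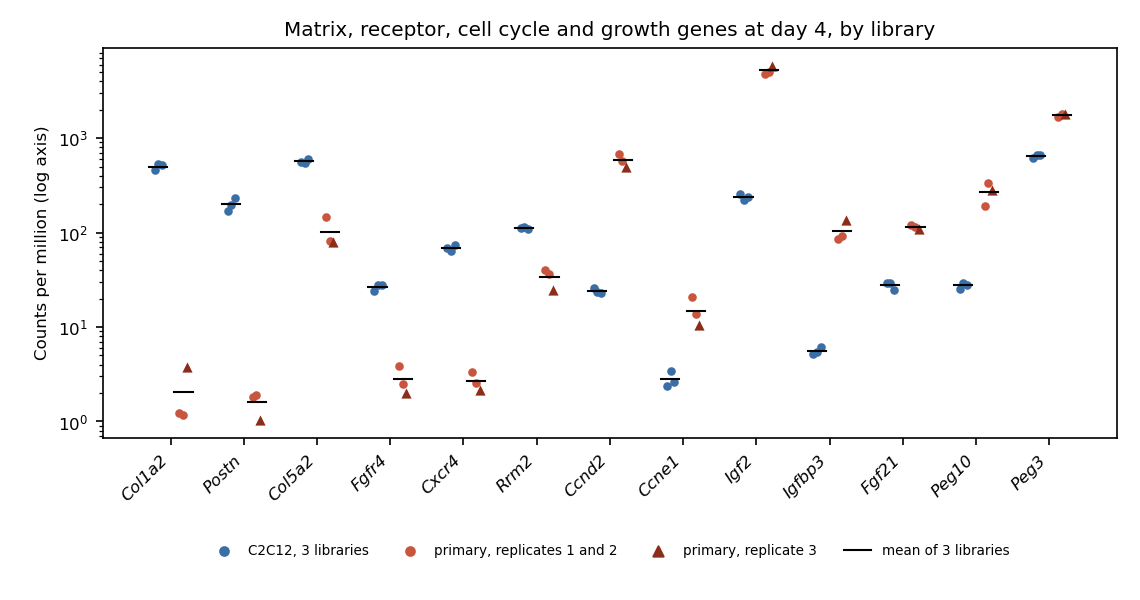
CPM on a log axis of 13 matrix, receptor, cell cycle, growth factor and imprinted genes in each day 4 library, with C2C12 in blue, primary replicates 1 and 2 in red, primary replicate 3 as a dark triangle and group means as black lines. For all 13 genes the primary libraries lie wholly above or wholly below the C2C12 libraries, with Col1a2 from 454, 527 and 519 CPM down to 1.22, 1.17 and 3.78 CPM and Igf2 from 256, 223 and 236 CPM up to 4824, 5058 and 5836 CPM.

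Extracellular matrix genes were more often lower in primary myotubes. Of 20 tested collagens 9 were lower and 2 higher (median -1.03), against 12 and 5 without primary replicate 3. Of 31 matricellular proteins and proteases 16 were lower and 2 higher (median -1.30), against 20 and 6 of 33. Col1a2 (chr6:4504814-4541544), a chain of collagen I, was at 454, 527 and 519 CPM in C2C12 and 1.22, 1.17 and 3.78 CPM in primary myotubes (-7.92 ± 0.49, adjusted p = 7.14e-05). The other chain gene Col1a1 (88.2, 159 and 127 against 9.16, 5.06 and 2.25 CPM, -4.50 ± 0.51, adjusted p = 0.000725) and Col5a2 (562, 548 and 608 against 148, 81.1 and 78.7 CPM, -2.48 ± 0.26, adjusted p = 0.000564) were lower with no overlap. Col25a1, a membrane collagen that muscle makes for incoming motor axons, went the other way, as did 1 further collagen, and was at 32.6, 35.9 and 32.3 CPM and 582, 607 and 457 CPM (4.03 ± 0.15, adjusted p = 1.13e-05).

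Postn, the matrix protein periostin, was at 168, 197 and 233 CPM and 1.83, 1.92 and 1.03 CPM (-6.96 ± 0.27, adjusted p = 1.17e-05). The small proteoglycan genes Prelp (15.7, 16.8 and 20.5 against 0.115, 0.0755 and 0.0763 CPM, -7.57 ± 0.24, adjusted p = 9.05e-06) and Ogn (498, 394 and 553 against 186, 172 and 169 CPM, -1.45 ± 0.14, adjusted p = 0.000405) and the collagen crosslinking enzyme gene Lox (322, 377 and 361 against 74.3, 38.5 and 75.7 CPM, -2.49 ± 0.26, adjusted p = 0.000576) were also lower. The same held for 11 of the 13 tested fibroblast markers, with 0 higher (median -2.69), and for 10 of 14 without primary replicate 3, with 1 higher. Dcn (decorin) was at 57.3, 59.2 and 73.9 CPM and 0.496, 0.264 and 1.75 CPM (-6.24 ± 0.54, adjusted p = 0.000256). Pdgfra, the receptor that marks fibro-adipogenic progenitors, was at 11.7, 9.405 and 10.3 CPM and 1.95, 1.59 and 2.56 CPM (-2.37 ± 0.22, adjusted p = 0.00033). Among the other marker lists, 2 endothelial markers were higher and 1 lower of 7 tested, 4 and 2 of 6 macrophage and leukocyte markers, 3 and 4 of 7 pericyte markers, 2 and 2 of 5 Schwann cell markers, 0 and 2 of 5 adipocyte markers and 1 and 1 of 4 tendon markers. The shares of all genes tested were 24.3% higher and 22.6% lower. Without primary replicate 3 the counts of higher and lower markers in these lists were unchanged, except that 2 of 5 tendon markers were lower. The part of fibroblast-like cells in the matrix differences was not tested.

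Contractile genes of smooth muscle and non-muscle cells were lower in 14 of 31 and higher in 2 (median -0.66), with 20 and 2 without primary replicate 3. Csrp2, a LIM protein of smooth muscle, was at 18.4, 17.1 and 17.4 CPM and 0.916, 0.944 and 1.11 CPM (-4.15 ± 0.14, adjusted p = 1.05e-05). Myh9, the non-muscle myosin IIA heavy chain, was at 1425, 1438 and 1522 CPM and 722, 619 and 375 CPM (-1.35 ± 0.23, adjusted p = 0.00403), with primary replicate 3 the lowest.

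The remaining lists were more mixed. Interferon and antigen presentation genes were higher in 11 and lower in 4 of 33 (median 0.66), against 25 and 6 of 37 (median 1.67) without primary replicate 3 and 5 and 5 on the TPM scale. The peptide transporter gene Tap2 was at 4.39, 5.07 and 5.03 CPM and 26.2, 19.9 and 25.4 CPM (2.30 ± 0.15, adjusted p = 8.53e-05) and the interferon regulatory factor gene Irf1 at 23.2, 23.1 and 23.1 CPM and 7.86, 7.095 and 8.32 CPM (-1.58 ± 0.10, adjusted p = 9.44e-05), in opposite directions. Chemokine and hypoxia genes were higher in 6 (24%) and lower in 10 (40%) of 25, against 24.3% and 22.6% of all genes tested. Their median of -0.10 turned to 0.04 without primary replicate 2. Without primary replicate 3 the counts were 8 and 11 (median -0.21). The hypoxia-induced genes Pdk1, which restrains pyruvate oxidation (76.1, 70.2 and 70.5 against 247, 253 and 273 CPM, 1.83 ± 0.09, adjusted p = 2.63e-05), and Bnip3, a mitophagy receptor (75.4, 76.1 and 68.6 against 262, 202 and 267 CPM, 1.73 ± 0.13, adjusted p = 0.000151), were higher, and the alarmin gene Il33 was lower (11.9, 9.47 and 11.6 against 2.52, 1.28 and 1.98 CPM, -2.51 ± 0.26, adjusted p = 0.000547). The hypoxia-induced genes did not move together. Car9, a carbonic anhydrase (6.33, 5.405 and 7.603 against 0.878, 0.453 and 1.14 CPM, -2.96 ± 0.34, adjusted p = 0.000817), Ndrg1 (95.5, 92.3 and 99.9 against 24.3, 10.9 and 38.1 CPM, -1.97 ± 0.40, adjusted p = 0.00766) and Adm, the peptide hormone adrenomedullin (1.57, 1.92 and 2.39 against 0.687, 0.415 and 1.11 CPM, -1.41 ± 0.38, adjusted p = 0.0226), picked after their values were seen, were lower in every primary library.

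Atrophy and proteolysis genes were higher in 7 (25.0%) and lower in 5 (17.9%) of 28, against 24.3% and 22.6% of all genes tested. Their median of 0.15 turned to -0.10 on the TPM scale, with 4 higher and 6 lower. Without primary replicate 3 they were higher in 14 and lower in 6 (median 0.23), where 30.6% and 29.9% of all genes were called. The metallothionein gene Mt1 was lower at 32.1, 23.1 and 26.01 CPM against 78.7, 75.3 and 92.5 CPM (-1.60 ± 0.15, adjusted p = 0.000348). Genes of limb position, Hox genes for the most part, were higher in 9 (22.5%) and lower in 10 (25.0%) of 40, near the shares of all genes. Their median of 0.17 turned to -0.06 on the TPM scale, with 6 higher and 12 lower. It also turned to -0.04 in DESeq2, -0.06 without primary replicate 1 and -0.17 without replicate 2. Without replicate 3 the counts were 15 and 11 of 41, with a median of 0.08. The homeobox gene Shox2 was at 32.1, 31.6 and 30.6 CPM and 2.18, 1.396 and 2.403 CPM (-3.98 ± 0.20, adjusted p = 3.25e-05) and Emx2 at 0.167, 0.0916 and 0.178 CPM and 9.504, 7.02 and 35.9 CPM (6.88 ± 0.89, adjusted p = 0.00125). Lbx1, a factor of migrating limb muscle precursors picked after its values were seen, was at 0.502, 0.916 and 0.535 CPM in C2C12, 40.6 and 43.03 CPM in primary replicates 1 and 2 and 1.11 CPM in replicate 3.

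The Y-linked genes marked the sources. Eif2s3y was at 0.134, 0.153 and 0.143 CPM in C2C12 and 111, 105 and 98.9 CPM in primary myotubes, and Ddx3y at 0.1005, 0 and 0.0357 CPM and 208, 175 and 174 CPM. Kdm5d and Uty were read in both, at 11.2, 11.9 and 11.3 CPM against 58.1, 53.7 and 43.3 CPM and at 4.62, 4.55 and 6.75 CPM against 77.2, 79.4 and 64.3 CPM. Their X-linked relatives Kdm5c (-0.90), Kdm6a (-1.02), Ddx3x (-0.89) and Eif2s3x (-0.62) were all lower in primary myotubes. Reads shared between such X and Y pairs can be divided between them by the counting, so their low levels are uncertain.

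The most extreme differences were searched among the 4586 genes past the threshold whose average log2 CPM reached 3 and whose groups did not overlap. In this set, 11 genes had no counts in C2C12 and 2 none in primary myotubes. Gpc4, a cell-surface heparan sulfate proteoglycan, was at 354, 387 and 242 CPM in the primary libraries with 2 counts in the 3 C2C12 libraries, a ratio of 14858 with an exact counting interval of 4113 to 122697. Zcchc3, an innate immune sensor cofactor, had no counts in C2C12 and was at 20.8, 22.1 and 14.8 CPM in primary myotubes, and Cdkn2a and Cdkn2b were among the same 10 genes. Most of the other extreme genes are pseudogenes or near-identical copies whose reads the counting could divide. Eno1b, a copy of the enolase gene Eno1, was at 303, 266 and 269.9 CPM in C2C12 and 0.191, 0 and 0.915 CPM in primary myotubes, and Rpl3-ps1 at 578, 483 and 510.1 CPM and 0.229, 0.566 and 1.68 CPM, and both values are therefore uncertain.

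Transcript usage, the share of a gene's estimated counts held by each of its transcripts, was tested with limma's diffSplice after voom in 7737 genes with at least 2 transcripts past the filter. It differed in 1403 genes (18.1%), and in 12 of 29 tested genes of a panel of muscle genes with known isoforms (41.4%). Of these 12, 9 were called without primary replicate 3 and 7 by edgeR's test of usage. Splice forms with shared exons are separated by statistical estimation, so shares of close isoforms are uncertain.

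Pkm-201 held 29.7, 30.7 and 29.9% of Pkm counts in the C2C12 libraries and 17.3, 14.03 and 5.897% in the primary libraries (gene adjusted p = 0.0123), a call lost in edgeR's test of usage (adjusted p = 0.0902). Pkm encodes pyruvate kinase, whose alternative exons switch between M1 and M2 forms. The troponin T gene Tnnt3 used Tnnt3-202 for 42.6% ± 1.53 (SD, n = 3) of its counts in C2C12 and 19.3% ± 4.65 in primary myotubes, and Tnnt3-215 for 17.2% ± 0.493 and 35.3% ± 9.74 (gene adjusted p = 0.0344 in limma). The groups of both transcripts did not overlap.

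In Tpm1, tropomyosin 1, Tpm1-205 held 77.5% ± 1.52 and 87.8% ± 3.98 and Tpm1-216 13.6% ± 1.13 and 5.56% ± 4.09 (gene adjusted p = 0.0272 in limma). Neb-203 held 18.6, 15.99 and 15.1% of Neb counts in C2C12 and 24.1, 25.6 and 30.8% in primary libraries (gene adjusted p = 1.42e-08), and Mbnl1-214 21.2, 27.05 and 23.99% and 40.9, 39.5 and 48.8% of Mbnl1 counts (gene adjusted p = 0.028). Tnnt2-201 held 12.96, 15.6 and 3.14% and 18.97, 25.8 and 25.7% (gene adjusted p = 0.000956), with a wide spread in C2C12, and Pdlim5-201 22.4, 24.8 and 25.2% and 16.9, 17.04 and 2.38% (gene adjusted p = 0.0246), a call also lost in edgeR's test (adjusted p = 0.192). Myl1-202 held 73.4, 72.3 and 73.1% of the counts of the light chain gene Myl1 in C2C12 and 85.7, 79.7 and 75.4% in primary libraries (gene adjusted p = 7.44e-08), a call lost when limma tested transcripts of at least 10% of a gene (adjusted p = 0.289). The smallest p of all genes was that of Hspa8, a constitutive heat shock chaperone, where Hspa8-202 held 92.8, 92.3 and 95.5% in C2C12 and 14.2, 12.4 and 19.7% in primary libraries (gene adjusted p = 7.36e-20). These are shares of estimated counts. The part of sequence differences between the mouse strains in how reads were divided was not tested, here or in the other genes.

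**Figure D4:**
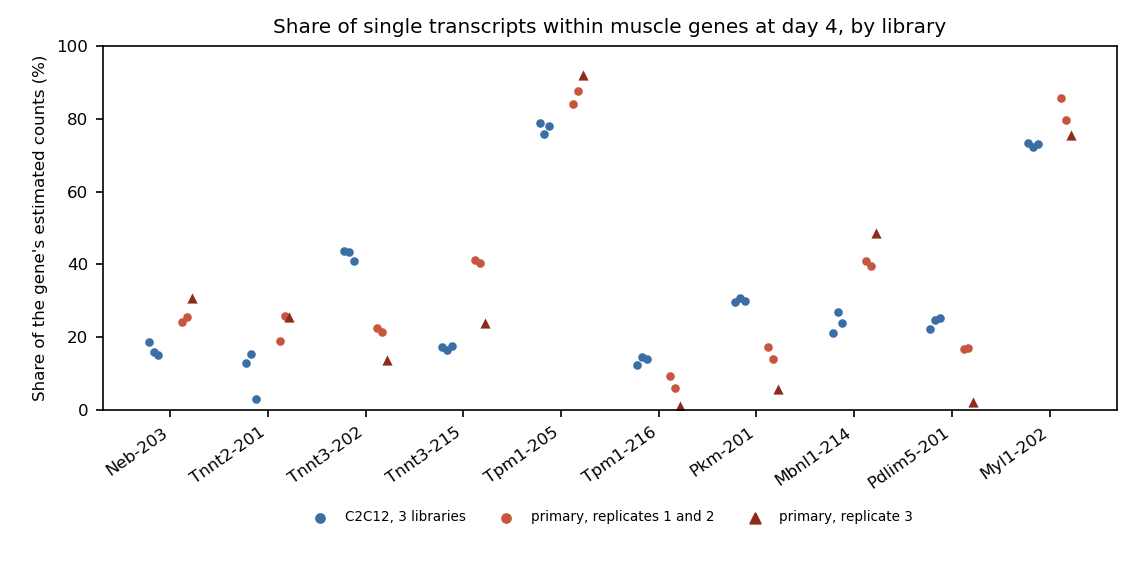
Share of a gene's estimated counts held by 10 transcripts of 8 muscle genes in each day 4 library, in percent, with C2C12 in blue, primary replicates 1 and 2 in red and primary replicate 3 as a dark triangle. Pkm-201, Tnnt3-202 and Pdlim5-201 lie lower in all 3 primary libraries and Mbnl1-214 and Neb-203 higher, while primary replicate 3 differs visibly from the other primary libraries for several transcripts.

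The day 4 differences were set against those of confluent myoblasts of both sources at day 0 and of day 7 myotubes on patterned gelatin, in a fit of 18 libraries over 15262 genes. The day 0 cells are labelled as grown on plastic, so the change from day 0 to day 4 cannot be told apart from the change of substrate. The difference between sources moved from day 0 to day 4 toward primary cells in 1029 genes (6.74%) and toward C2C12 cells in 1053 (6.9%). In 1173 of these 2082 genes the difference kept its sign, in 909 it changed sign, and in 190 it was past the threshold on both days with opposite signs. It was smaller in size at day 4 than at day 0 in 1456 genes and larger in 626. From day 4 to day 7 the difference moved upward in 1 gene (0.00655%) and downward in 5 (0.0328%), although 1730 genes had an unadjusted p under 0.05. In simulated counts this test found 24% of true changes of 1 and 89% of true changes of 2 on the log2 scale. The test from day 0 to day 4 found 29% and 90%. Few calls therefore do not show that few differences moved. Among primary cultures, replicate 3 resembled its own number across days. How closely replicates 1 and 2 paired by number could not be decided. With the culture as a block the counts were 3608 genes from day 0 to day 4 and 108 from day 4 to day 7.

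Several sarcomere and calcium genes that primary myoblasts already held at day 0 came closer between sources at day 4. Neb was at 159, 149 and 202 CPM in C2C12 and 2708, 1959 and 1796 CPM in primary cells at day 0, a log2 difference of 3.67, and the change of the difference by day 4 was -2.46 ± 0.46 (adjusted p = 0.00212). Pygm went from 4.74 at day 0 by -3.90 ± 0.26 (adjusted p = 2.15e-07), Atp2a1 from 2.91 by -2.75 ± 0.61 (adjusted p = 0.00671), Chrng from 3.38 by -2.51 ± 0.23 (adjusted p = 5.99e-06) and Ryr1 from 2.43 by -1.35 ± 0.28 (adjusted p = 0.00404). Tnnt1 went from 23.5, 30.1 and 39.6 CPM against 179, 178 and 151 CPM at day 0 to the reverse order of means at day 4 (-2.98 ± 0.38, adjusted p = 0.00011). Myod1, at 143, 153 and 178 CPM and 750.4, 961 and 868 CPM at day 0, changed by -1.86 ± 0.21 (adjusted p = 3.52e-05) and Myog by -1.97 ± 0.49 (adjusted p = 0.0135).

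Other muscle genes were low in primary cells at day 0 and moved the other way. Capn3 was at 7.01, 8.38 and 8.25 CPM in C2C12 and 0.237, 0.2501 and 0.382 CPM in primary cells at day 0, a log2 difference of -4.74, which moved by 6.18 ± 0.39 to a positive value (adjusted p = 1.56e-07). Kcnj2, the inward rectifier channel that sets the resting potential before fusion, was at 68.8, 64.8 and 60.5 CPM and 1.28, 1.68 and 0.974 CPM at day 0 and at 75.5, 76.5 and 74.9 CPM and 42.5, 57.6 and 67.2 CPM at day 4 (5.18 ± 0.31, adjusted p = 8.48e-08). Myh4 (3.33 ± 0.69, adjusted p = 0.00429) and Ryr3 (3.22 ± 0.75, adjusted p = 0.00911) moved the same way.

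Among the largest movements toward C2C12, Dio2, which activates thyroid hormone, was at 12.5, 12.6 and 13.1 CPM in C2C12 and 287, 300.3 and 194 CPM in primary cells at day 0 and at 284, 293 and 294 CPM and 96.8, 133 and 143 CPM at day 4, so that the order of the sources turned (-5.58 ± 0.33, adjusted p = 8.25e-08). The imprinted Mest went from 120.2, 177 and 183 CPM against 2575, 3889 and 2110.1 CPM to 136, 133 and 149 CPM against 82.2, 63.7 and 16.2 CPM (-5.53 ± 0.71, adjusted p = 0.000114). Igf2 remained far higher in primary cells on all 3 days, with log2 differences of 7.65, 4.46 and 4.30 at days 0, 4 and 7, and narrowed from day 0 by -3.19 ± 0.20 (adjusted p = 1.56e-07). Between days 4 and 7, Golim4, a Golgi membrane protein, moved from 87.4, 80.7 and 88.99 CPM against 64.1, 65.7 and 58.2 CPM to 70.4, 60.3 and 64.1 CPM against 82.2, 79.3 and 97.1 CPM (0.86 ± 0.14, adjusted p = 0.046). Of the 5 genes called in the other direction, Rps6-ps4, Gm13835, Gm6863 and Gm20431 were abundant enough to be named by the same rule. Rps6-ps4, Gm13835 and Gm6863 are annotated as processed pseudogenes, so their counts are uncertain. Gm20431 is annotated as protein-coding, and whether reads shared with other genes enter its counts was not tested.

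**Figure D5:**
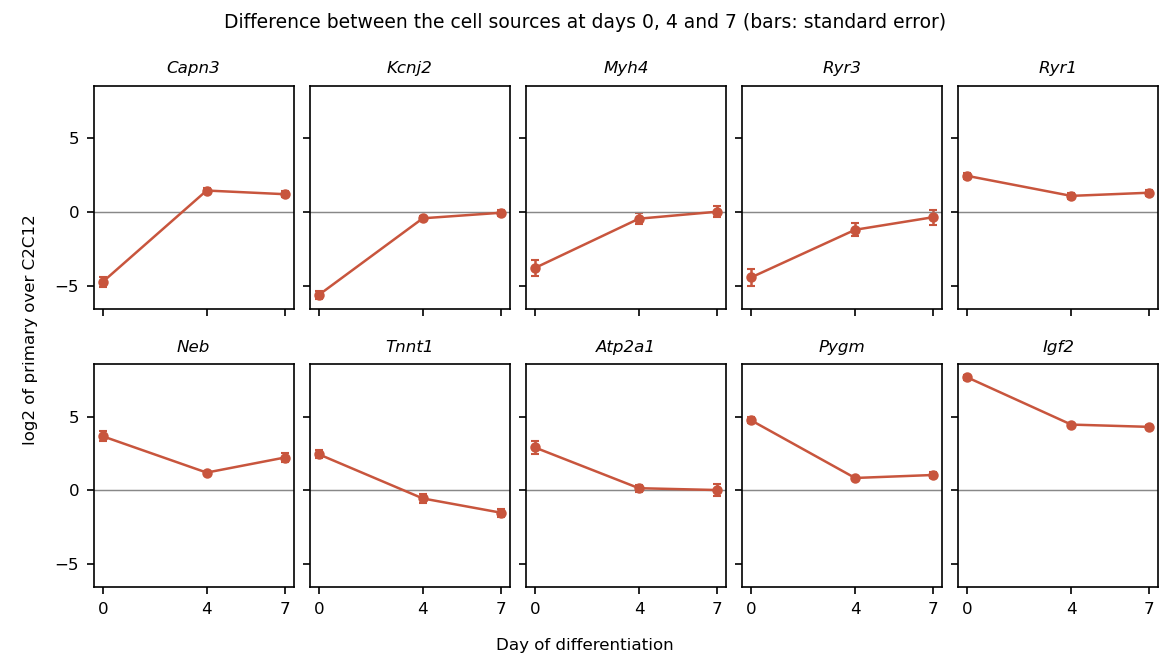
Log2 difference, primary over C2C12, with its standard error at days 0, 4 and 7 for 10 genes, the day 4 value from the 6 day 4 libraries and the others from the fit of 18 libraries. Neb, Pygm, Atp2a1 and Tnnt1 start above 0 at day 0 and are lower at day 4, Capn3, Kcnj2, Myh4 and Ryr3 start below 0 and are higher at day 4, and Igf2 stays above 4 throughout.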

How the data were processed

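RNA-seq libraries of 3 C2C12 and 3 primary cultures at day 4 on patterned gelatin were compared, with the day 0 libraries (plastic) and day 7 libraries (patterned gelatin) of both sources for the change over time. The authors quantified reads with kallisto against a mm10 mouse transcriptome, per the labels, and deposited for each library the estimated counts and the length-scaled abundance (TPM) of 88198 transcripts. The transcript annotation release is not given in the sources used here. Transcripts were matched by identifier to GENCODE M21, which placed 86031 of them in 30205 genes, and the 2167 unmatched transcripts held 0.723% to 0.893% of counts and were left out of library sizes and tests.

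Estimated counts were summed per gene, rounded, filtered with filterByExpr and scaled by TMM, and tested with the quasi-likelihood test of edgeR 4.0.16 in R 4.3.3 on the 6 libraries, with Benjamini-Hochberg adjustment over all genes tested and a threshold of 0.05 on adjusted p. The change of the difference between days was a contrast in a fit of 18 libraries. Transcript usage was tested with voom and diffSplice in limma 3.58.1 on transcript counts. Alternatives used DESeq2 1.42.0, RLE size factors, no filter, a length offset, limma on log2(TPM + 1), glmTreat beyond a log2 difference of 1, 18 libraries in the fit, a replicate block and each library left out. Intervals of count ratios are exact at 95% and cover counting error only, and a gene with no counts in a group was set to a floor of 3 counts over its 3 libraries. Scripts were tested on simulated data. The libraries held 26727514 to 30880960 gene-assigned counts, so that 1 CPM rests on 26.7 to 30.9 counts.

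Genes were named by a rule that took the 10 highest and 10 lowest differences among abundant called genes without overlap, up to 5 members of each of 31 lists with the smallest adjusted p, a panel of muscle genes, the isoform panel, the 8 highest and lowest of each interaction, and markers of other cell types and sex-linked genes. A gene that the rule took is not reported here. The members of the comparison, the lists and the panels were chosen with earlier results of these data known. C2C12 and primary libraries with the same replicate number did not deviate together (r = -0.03, 0.14 and -0.03 across genes), so the numbers do not pair the sources. Primary libraries with the same number did across days (r = 0.68, 0.68 and 0.84 between days 4 and 7), but replicates 1 and 2 also did across numbers (r = 0.30 and 0.47). Day 7 replicate 1 correlated more with day 0 replicate 2 (0.33) than with day 0 replicate 1 (0.24). Likewise, day 7 replicate 2 correlated more with day 0 replicate 1 (0.39) than with day 0 replicate 2 (0.34). Deviations were taken from means of 3 libraries, so replicate 3, which stood apart, makes replicates 1 and 2 deviate alike. These correlations therefore cannot decide how closely replicates 1 and 2 pair by number. C2C12 libraries with the same number gave r from -0.12 to 0.36.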

Additional observations from a re-analysis of the deposited data

Results flagged for a closer look

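The difference between sources changed between day 0 and day 4 in 2082 genes and between day 4 and day 7 in 6 genes, each by a test of the difference itself in edgeR's quasi-likelihood fit of 18 libraries, with the day 0 cells on plastic. From day 0 to day 4 it moved toward C2C12 in Dio2 (log2 change of the difference -5.58), Mest (-5.53) and Sema6b (-4.88), a plexin ligand, and toward primary cells in Capn3 (6.18), Krt80 (5.29), an epithelial keratin, and Kcnj2 (5.18). These are the genes above 0.2 CPM in every day 0 and day 4 library among the 8 highest and 8 lowest changes, which were taken from genes whose average log2 CPM over the 18 libraries reached 3.

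Among the muscle panel the difference moved toward C2C12 in the structural and metabolic genes Pygm (-3.90), Tnnt1 (-2.98), Atp2a1 (-2.75), Neb (-2.46), Tnnc1 (-1.38) and Ryr1 (-1.35), in the receptor subunits Chrng (-2.51) and Chrna1 (-0.97), and in the growth factor genes Igf2 (-3.19) and Igf1 (-3.18). It moved the same way in the regulators Pax7 (-1.99), Myog (-1.97), Myod1 (-1.86) and Cdkn1a (-0.76), and toward primary cells in Myh4 (3.33) and Ryr3 (3.22). The calls of Tnnc1, Pax7 and Chrna1 were lost when some single libraries were left out. Between day 4 and day 7 the difference in Golim4 moved by 0.86.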

How the results depend on the processing

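Of 3415 recomputed values for 244 genes named at day 4, 3184 kept their direction and their side of the threshold, 190 lost and 40 gained a call, and 1 turned: Krt80, with a log2 difference of 0.05 that was not called with all libraries and 0.30 without primary replicate 2, was at -0.59 without primary replicate 3. The day 4 count of 6687 became 1586 for differences beyond 1 on the log2 scale, which asks more of each gene, and ran from 4343 without C2C12 replicate 3 to 8820 without primary replicate 3. It was 7274 in DESeq2, 6691 with RLE size factors, 6418 on the TPM scale, 6642 with no filter, 6316 with a length offset and 6592 with 18 libraries in the fit. With the replicate number as a block, day 4 calls were 5672 and transcript usage calls 1246, although the numbers do not pair the sources. Across days, the pairing of primary cultures by number could not be decided outside replicate 3. There the block gave 3608 calls in place of 2082 from day 0 to day 4 and 108 in place of 6 from day 4 to day 7. The call of Gdf6 alone among the 34 genes named was lost under it. Leaving out 1 library gave 1462 to 2290 and 3 to 29 calls, the 29 without C2C12 replicate 1 of day 7, against 20 without primary replicate 3 of day 7. DESeq2 called 214 genes from day 4 to day 7, and the cause was not tested. Transcript usage gave 500 genes in edgeR's diffSpliceDGE, 1150 with transcripts of at least 10% of a gene, and 556 without C2C12 replicate 3 (671 and 664 without C2C12 replicates 1 and 2) to 1533 without primary replicate 3. With 3 cultures a group and primary replicate 3 apart from the others, genes with a wide primary spread could go uncalled, and levels below 1 CPM rest on few counts.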

Other observations

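The differences were not even over the chromosomes. The median log2 difference at day 4 was 0.39 on chromosome 2 (566 genes higher and 114 lower of 1157) and 0.31 on chromosome 7 (452 and 129 of 1074), and -0.29 on chromosome 15 (50 and 210 of 563), against medians of -0.20 to 0.17 on the 17 chromosomes other than 2, 7, 15, Y and the mitochondrial one. At day 0 the medians of chromosomes 2 and 7 were 0.44 and 0.29 and at day 7 0.39 and 0.24, from separate libraries of the same sources. Differences of listed genes, such as Chrna1 on chromosome 2, were not adjusted for these shifts.

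Primary replicate 3 differed from the other primary libraries on some chromosomes only in part. Its median difference from the C2C12 mean was 0.33 on chromosome 6 against 0.03 and 0.08 in replicates 1 and 2, 0.27 on chromosome 10 against -0.12 and -0.16, 0.37 on chromosome 11 against -0.04 and -0.0046, and -0.07 on chromosome 15 against -0.41 and -0.40. On chromosome 18 it was 0.31 against -0.01 and -0.0053. On chromosome 2 the medians of the 3 primary libraries were 0.33, 0.39 and 0.34. These values were noticed after the data were seen and were not tested.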
